A study of Mus musculus with 2 samples.

Results

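The mir-15, mir-16 and mir-195a genes make a family of short RNAs that hold dividing cells back: they pair with the messages of cyclins, of cyclin-dependent kinases and of the survival factor Bcl2. The 5 genes Mir15a, Mir16-1, Mir15b, Mir16-2 and Mir195a were taken from the count tables by matching Ensembl identifiers to GENCODE names. They are 5 of the 1973 microRNA gene rows, and all 5 were detected, that is, had at least 10 counts in both libraries. The tables come from 2 libraries of short RNA from B6NCrl mouse hindbrain at embryonic day 13.5, male and female embryos pooled, healthy and with no treatment named. Both libraries belong to 1 group, so the design gives levels and their spread but no contrast between conditions. The labels name the libraries biological replicates 1 and 2, each with technical replicate number 1. They share 1 donor identifier and have separate biosample identifiers, so the spread between them may be technical in part. In whole tissue, fewer cells of a type and less RNA per cell cannot be told apart.

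A microRNA is cut from a hairpin and is guided to its targets mainly by its seed, bases 2 to 8 of the mature strand. Mir15a and Mir16-1 lie in Dleu2, a non-coding transcript from a region that is deleted in chronic lymphocytic leukaemia. Mir15b and Mir16-2 lie in Smc4, which encodes a condensin subunit that compacts chromosomes for division. Mir195a, studied for cell cycle exit of heart muscle after birth, lies beside Mir497.

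The mature sequences are shown because they give the seed that the family shares and the bases that tell its genes apart. They are from RefSeq on GRCm38.p6, 5′ to 3′, with the seed in capitals. All 5 genes were matched there by symbol. The 5p strands of the family were
miR-15a-5p: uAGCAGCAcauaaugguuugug
miR-15b-5p: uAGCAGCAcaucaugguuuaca
miR-16-5p: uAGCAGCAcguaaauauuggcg
miR-195a-5p: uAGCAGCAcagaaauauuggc

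Every 5p strand of the family opens with the same 9 bases and has the seed AGCAGCA, and differences begin at base 10 or later. Counted from the 5′ end of the first sequence named, miR-16-5p and miR-195a-5p differ at 2 of 21 compared bases, G10A and U11G. miR-15a-5p and miR-15b-5p differ at 4 of 22, A12C, G20A, U21C and G22A. The gap between the mir-15 and mir-16 branches is wider, at 6 bases for miR-15a-5p against miR-16-5p and 8 for miR-15b-5p against miR-16-5p.

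The Mir16 genes are the case in which the sequence limits the count. The sequence miR-16-5p stands whole in both hairpins, on chromosomes 14 and 3, and the longest run that these hairpins share has 23 bases. Reads placed at more than 1 locus were set aside before the gene rows were counted, 33.9% of all reads in replicate 1 and 34.5% in replicate 2. The 3p strands belong to 1 gene each and are shown because they tell the copies apart.
miR-16-1-3p: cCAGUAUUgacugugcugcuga
miR-16-2-3p: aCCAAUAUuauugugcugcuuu

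None of the other family 5p or 3p sequences stood in a second hairpin of that table. It held no hairpin sequence under the symbol Mir15a, so that hairpin was not searched. The tables give 1 count per gene and do not divide it between the strands. The values of Mir16-1 and Mir16-2 are therefore uncertain as levels of miR-16, and how many miR-16-5p reads were set aside was not tested.

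On GRCm38, Mir15a (ENSMUSG00000093007.1) lies on the minus strand at chr14:61632027-61632110, in an intron of Dleu2. Its neighbour Mir16-1 (ENSMUSG00000092995.1) lies 54 bases away at chr14:61631880-61631972 and overlaps a Dleu2 exon. Mir15b (ENSMUSG00000065580.2) and Mir16-2 (ENSMUSG00000065606.1), at chr3:69009772-69009835 and chr3:69009902-69009996 on the plus strand, are 66 bases apart in an intron of Smc4. Mir195a (ENSMUSG00000065411.2) is intergenic at chr11:70235042-70235135 on the plus strand, 241 bases from Mir497.

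Levels are in CPM: each gene's counts were divided by the sum over all gene rows of the library, 3006571 counts for replicate 1 and 4508244 for replicate 2, and multiplied by 1000000. A short read covers a whole mature strand, so CPM was used between genes without division by length. Per 100 bases of hairpin the order of the 5 genes was the same, from 2778 CPM for Mir15a to 295 CPM for Mir195a.

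Mir15a was the highest of the 5 genes in counted reads. It had 7152 counts in replicate 1 and 10314 in replicate 2, or 2379 CPM (exact Poisson 95% interval 2324 to 2435) and 2288 CPM (2244 to 2332). The libraries differed little for this gene, with a coefficient of variation of 2.76%.

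Mir16-1, the Dleu2 copy of Mir16, had 5151 and 7997 counts, or 1713 CPM (1667 to 1761) in replicate 1 and 1774 CPM (1735 to 1813) in replicate 2. Both of its values lay below both values of Mir15a.

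Mir15b, the first hairpin of the Smc4 pair, had 2413 and 3402 counts, or 803 CPM (771 to 835) in replicate 1 and 755 CPM (729 to 780) in replicate 2. It was lower than both Dleu2 genes in each library.

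Mir16-2, its neighbour, had 825 and 1403 counts, or 274 CPM (256 to 294) and 311 CPM (295 to 328), and was the gene of the family that varied most, with a coefficient of variation of 8.89%. Mir195a had 837 and 1245 counts, or 278 CPM (260 to 298) and 276 CPM (261 to 292). The ranges of Mir16-2 and Mir195a overlapped, so their order is not set by these libraries. No other neighbours in the order overlapped, but this order is one of counted reads. The rows of both Mir16 genes lack the reads that fit both copies. Ranges between the libraries do not address that loss, so the place of either Mir16 gene by level is not settled.

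**Figure D1:**
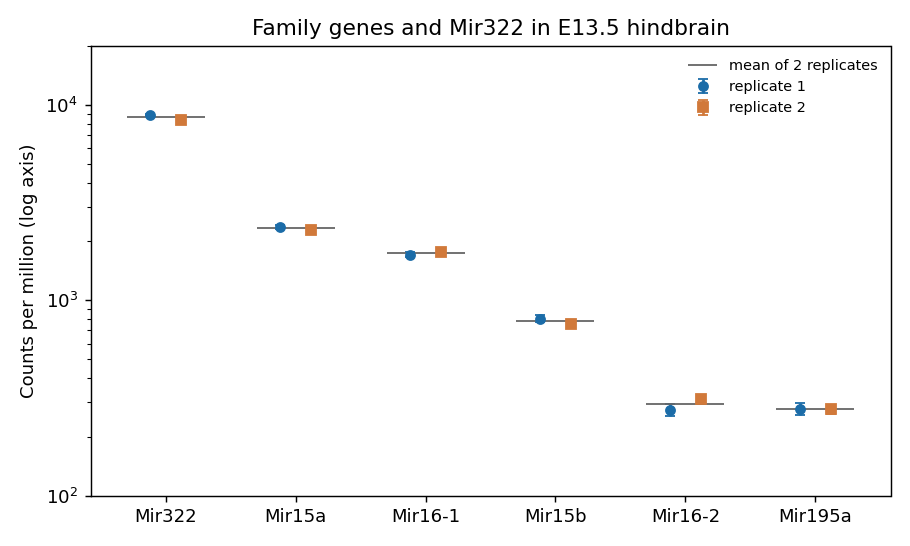
CPM on a log axis for Mir322 and the 5 family genes, with a circle for replicate 1, a square for replicate 2, exact Poisson 95% intervals as bars and the mean of both replicates as a line. Mir15a and Mir16-1 stand above Mir15b, Mir16-2 and Mir195a lie together at about the same level, and Mir322 stands above all of them.

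The means were 2333 ± 64.3 CPM for Mir15a, 1744 ± 42.9 CPM for Mir16-1, 779 ± 33.9 CPM for Mir15b, 293 ± 26.0 CPM for Mir16-2 and 277 ± 1.58 CPM for Mir195a (SD, n = 2 for each). Summed, the family reached 5447 CPM in replicate 1 and in replicate 2 5404 CPM, a mean of 5426 ± 30.9 CPM or 0.543% of the counts, a sum without the miR-16-5p reads that fit both copies. Mir15a made up 43.0% ± 0.941 of that sum, Mir16-1 32.1% ± 0.973, Mir15b 14.3% ± 0.543, Mir16-2 5.40% ± 0.511 and Mir195a 5.11% (n = 2). With 2 values a gene, an exact permutation test between genes cannot give a p below 0.333, so the ranges are given in its place.

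Among the 356 detected genes Mir15a ranked 68, Mir16-1 ranked 75, Mir15b ranked 100, Mir16-2 ranked 152 and Mir195a ranked 155. All 5 stood above the median of detected genes, 166 CPM. The genes next to them in the ranking belong to other families. Mir15a stood between Mir298 at 2401 ± 279 CPM and Mir708 at 2187 ± 85.0 CPM, and of these only Mir298 overlapped its range. Mir16-1 stood between Mir107, of the Pank-hosted family tied to lipid metabolism, at 1800 ± 51.8 CPM and Mir204, known from choroid plexus, at 1734 ± 682 CPM.

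Mir15b had Mir351, a gene of the Mir322 cluster on the X chromosome, above it at 824 ± 48.6 CPM and the stem cell gene Mir302a below it at 777 ± 75.7 CPM. Around Mir16-2 and Mir195a stood Mir448 of the Htr2c intron at 298 ± 78.4 CPM, Mir3074-1 at 291 ± 2.97 CPM, the oligodendrocyte gene Mir219a-1 at 279 ± 20.9 CPM and Mir485 of the Dlk1-Dio3 domain at 277 ± 11.1 CPM. Each of these 6 genes overlapped the range of the family gene beside it, as did Mir107 and Mir204.

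**Figure D2:**
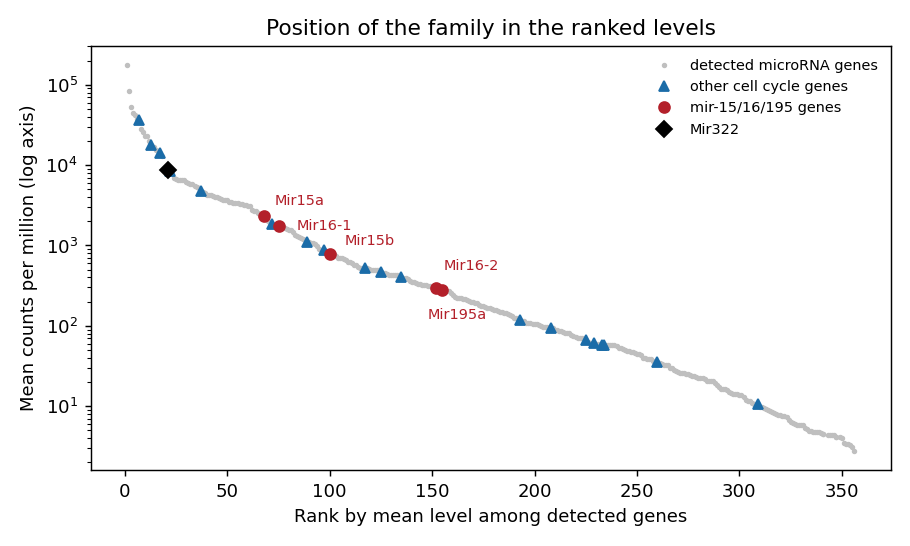
Mean CPM on a log axis against rank for the 356 detected genes (grey), with the 5 family genes (red circles), 19 other cell cycle genes (blue triangles) and Mir322 (black diamond). The family occupies ranks 68 to 155, below Mir322 at rank 21.

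The labelled tissue was checked against marker lists. The Hox cluster genes, which mark hindbrain and trunk, summed to 111478 and 135699 CPM in replicates 1 and 2, with 4 of 6 detected, and blood genes to 497 and 460 CPM, with 6 of 6 rows detected. Endothelial and mural genes summed to 27312 and 25286 CPM with 3 of 3 detected. Neuronal genes summed to 7923 and 8057 CPM with 4 of 8 rows detected, and Mir137 alone had 6132 and 6281 CPM of this. The undetected rows were Mir124a-1, Mir124a-2, Mir124a-3 and Mir9-2, and in the Hox list Mir196a-1 and Mir196a-2. Whether their reads were among the multi-locus reads set aside was not tested, so their low counts set no limit on these RNAs. Muscle genes had 149 and 85.2 CPM with 3 of 6 rows detected, and Mir1a-1, Mir133a-1 and Mir133a-2 at 0 in both. These muscle genes are known to have copies with the same mature strand, whose reads would be among the multi-locus reads set aside, so their 0 sets no limit on muscle RNA. Epithelial genes had 801 and 688 CPM with 7 of 7 detected. Choroid plexus and multiciliated genes had 4991 and 9694 CPM with 6 of 7 detected.

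The Dleu2 pair was the larger source of counts. Mir15a and Mir16-1 together came to 4092 and 4062 CPM in replicates 1 and 2, and Mir15b and Mir16-2 together had 1077 and 1066 CPM. The Dleu2 pair thus exceeded the Smc4 pair 3.80-fold in replicate 1 and 3.81-fold in replicate 2, a ratio of 3.81 ± 0.00796 (SD, n = 2). Between the mir-15 genes, which do not share a mature sequence, Mir15a had 2.96 times the counts of Mir15b in replicate 1 (95% interval 2.83 to 3.11) and 3.03 times in replicate 2 (2.92 to 3.15). Between the mir-16 genes the ratio was higher, at 6.24 (5.80 to 6.73) and 5.70 (5.38 to 6.04) for Mir16-1 over Mir16-2. Those are counts of reads that could be placed at 1 copy.

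Within both pairs the mir-15 gene had more counts than the mir-16 gene. Mir15a held 58.1% of the Dleu2 pair's counts in replicate 1 (exact Clopper-Pearson 95% interval 57.3 to 59.0) and 56.3% in replicate 2 (55.6 to 57.0). Mir15b held 74.5% of the Smc4 pair's counts in replicate 1 (73.0 to 76.0) and 70.8% in replicate 2 (69.5 to 72.1). In both pairs the mir-15 share was lower in replicate 2, by more than counting error but with 1 library on each side. The means were 57.2% ± 1.28 and 72.7% ± 2.63 (SD, n = 2). Since miR-16-5p reads that fit both copies are in neither row, these shares describe counted reads, not the output of the hairpins.

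Mir195a has its own neighbour, Mir497, whose 5p strand has the same seed. Mir497 (ENSMUSG00000105220.1, chr11:70234717-70234800, plus strand) has no row of its own in the tables. The row of Mir497b, annotated across the same place on the other strand at chr11:70234692-70234816, had 895 and 1337 counts on its opposite strand, the strand of Mir497, and 0 and 3 counts on its own. These came to 298 and 297 CPM, against 278 and 276 CPM for Mir195a. Mir195a held 48.3% of the pair's counts in replicate 1 (45.9 to 50.7) and 48.2% in replicate 2 (46.3 to 50.2). This share was the closest to even of the 3 pairs and differed by less than counting error between the libraries. The opposite-strand counts of all 5 family genes were 0, below a floor set at 3 counts, or 0.998 CPM in replicate 1 and 0.665 CPM in replicate 2.

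**Figure D3:**
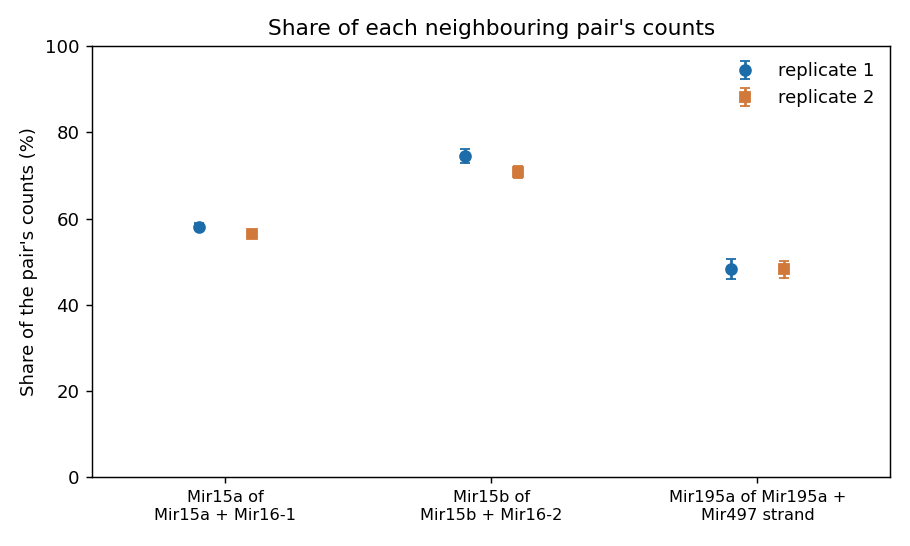
Share of each neighbouring pair's counts, in percent, taken by Mir15a (of Mir15a and Mir16-1), Mir15b (of Mir15b and Mir16-2) and Mir195a (of Mir195a and the strand of Mir497), by replicate with Clopper-Pearson 95% intervals. The shares lie near 57.2%, 72.7% and 48.3%, and the first pair of shares is lower in replicate 2.

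Other genes have the seed AGCAGCA as well, and 1 of them, Mir322, had more counted reads than the 5 family genes together. The 5p strands of Mir322 and Mir497 are shown because, of the genes beyond the family that have this seed, these had counts. Both differ from the family in base 1 as well as past the seed.
miR-322-5p: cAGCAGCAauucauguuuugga
miR-497a-5p: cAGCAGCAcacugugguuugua

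Mir322 (ENSMUSG00000065418.1, chrX:53054255-53054349, minus strand, intergenic), the mouse counterpart of human miR-424, had 26635 counts in replicate 1 and 37679 in replicate 2. This is 8859 CPM (8753 to 8966) and 8358 CPM (8274 to 8443), a mean of 8608 ± 354 CPM at rank 21. It had 3.72 times the counts of Mir15a in replicate 1 and 3.65 times in replicate 2. Of the counts in Mir322 and the 5 family genes, Mir322 held 61.9% and 60.7%, and the family 38.1% and 39.3%. The family's part lacks the miR-16-5p reads that fit both Mir16 copies, and no sequence of Mir322 stood in another of the hairpins searched. Multi-locus reads numbered 2080061 and 3270252 in the libraries, so whether Mir322 exceeds the family once those reads are assigned is not settled by these tables. The sequence of miR-322-5p differs from miR-15b-5p at 6 of 22 bases and from miR-16-5p at 10 of 22.

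The remaining genes with this seed and a row, Mir195b, Mir6342, Mir6353 and Mir6419, had 0 counts in both libraries, which allows the same 0.998 and 0.665 CPM.

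The mir-16 genes were set beside the other genes with a shared mature sequence. Of the 356 detected genes 325 had a mature sequence in the RefSeq table under their symbol. In 283 no mature sequence stood in another hairpin, in 34 some did and some did not, and in 8 all did. These classes hold only for the sequences that RefSeq listed under each symbol. The let-7a copies Mirlet7a-2 and Mirlet7a-1, for example, fell in the first and the last class. The medians were 157, 225 and 217 CPM. Among the 34 genes that shared some sequences, from 4.60 to 5165 CPM, Mir16-1 ranked 5 and Mir16-2 ranked 15. Genes with fewer than 10 counts in a library are not among these. Whether the setting aside of multi-locus reads bears on which genes pass that minimum was not tested. Mir124a-1, Mir124a-2 and Mir124a-3 had means of 3.55, 3.49 and 1.22 CPM and did not pass. Mir219a-2 and Mir9-3, whose mature sequences were all shared, passed at 2731 and 573 CPM. These examples were chosen after their values were seen. The medians therefore do not show whether sharing a sequence lowers a gene's counts.

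**Figure D4:**
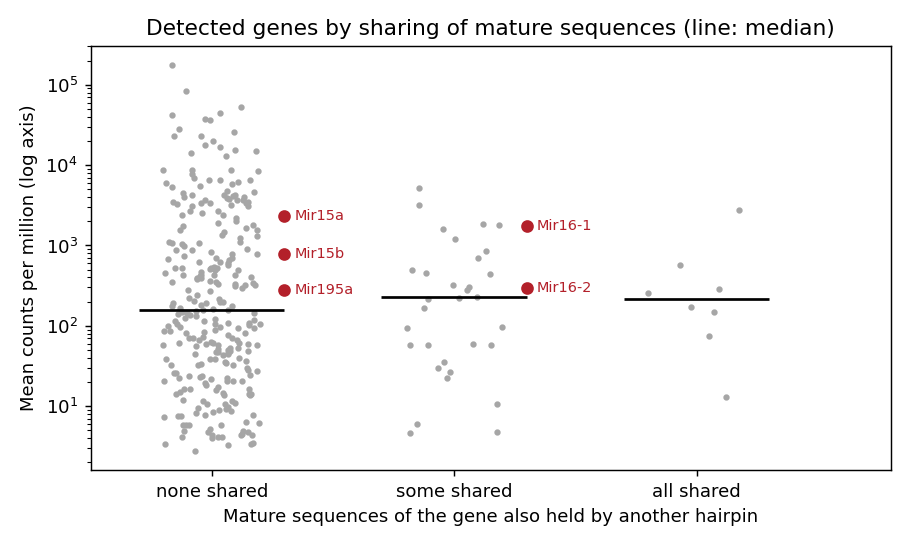
Mean CPM on a log axis for 325 detected genes, by whether none, some or all of their mature sequences also stand in another hairpin, with family genes in red and the median of each class as a line. Mir16-1 and Mir16-2 lie above the median of the class that shares some sequences, and Mir15a, Mir15b and Mir195a above the median of the class that shares none.

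The 5 genes were then compared between the libraries. Log2 ratios are replicate 2 over replicate 1 with trimmed-mean (TMM) library sizes from edgeR. They were -0.091 for Mir15a (95% counting interval -0.13 to -0.047), -0.12 for Mir15b (-0.20 to -0.047), 0.016 for Mir16-1 (-0.035 to 0.067), 0.15 for Mir16-2 (0.022 to 0.27) and -0.046 for Mir195a (-0.17 to 0.082). Both mir-15 genes were thus lower in value in replicate 2 and both mir-16 genes higher. The largest of these, for Mir16-2, is a 1.11-fold difference.

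A two-sided exact binomial test compared each gene's counts between the libraries, with p-values adjusted over the 356 detected genes by Benjamini-Hochberg. It takes counting error as the only error and compares these libraries, not conditions. Mir16-2 was called higher in replicate 2 (adjusted p = 0.0450), 1 of 5 family genes, against 20.2% of all detected genes, a call that was lost with no filter on low counts (adjusted p = 0.0859). Mir15a (adjusted p = 0.000166) and Mir15b (adjusted p = 0.00421) were called lower, 2 of 5, against 25% of all detected genes. Mir16-1 (adjusted p = 0.672) and Mir195a (adjusted p = 0.629) were not called. None of the 5 lay beyond 1.5-fold, against 9.55% of all detected genes. The family had a median of 779 CPM against 166 CPM for all detected genes, so these shares are not a like baseline. The common biological coefficient of variation between the libraries was 0.141. With a preset coefficient of 0.1 in edgeR's exact test, which adds such a spread to the counting error, no family gene was called, adjusted p-values ran from 0.975 to 1.00, and 0 of the 5 had an unadjusted p under 0.05.

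**Figure D5:**
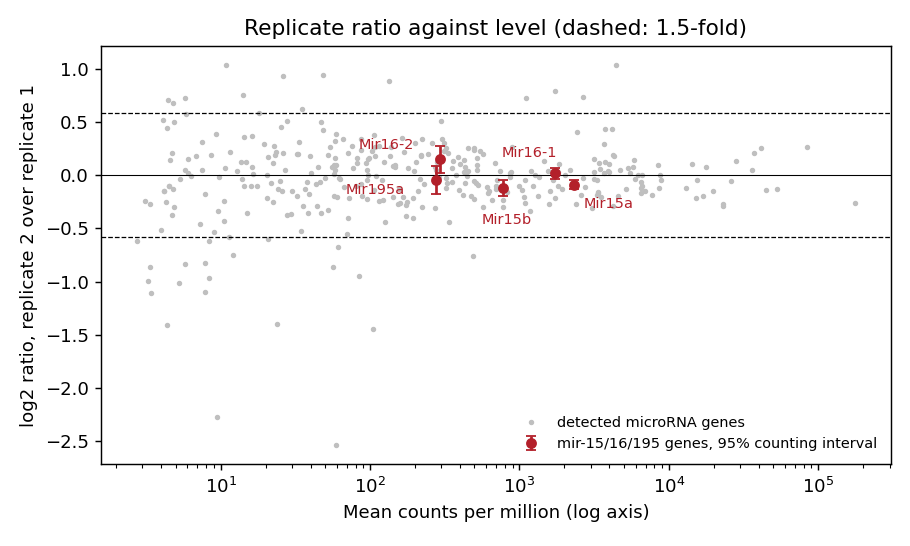
Log2 ratio of replicate 2 over replicate 1 against mean CPM (log axis) for the 356 detected genes (grey) and the 5 family genes (red, with 95% counting intervals), with dashed lines at 1.5-fold. All 5 family genes lie between -0.12 and 0.15.

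The other genes tied to the cell cycle formed a list of 20, the mir-17 family clusters, Mir221, Mir222 and the p53-linked mir-34 genes, of which 19 were detected. The highest were Mir17, first hairpin of the Mir17hg polycistron that drives proliferation, at 36088 ± 1368 CPM, Mir93 of the Mcm7 intron at 17605 ± 922 CPM and Mir20a at 14286 ± 992 CPM (SD, n = 2). The mir-17 clusters summed to 82591 and 88481 CPM in replicates 1 and 2, against 5447 and 5404 CPM for the 5 family genes. Both are sums of counted reads without the multi-locus reads, and the family's sum lacks the miR-16-5p reads that fit both Mir16 copies. Of the 19 genes 10 were called higher and 1 lower in replicate 2 by the exact binomial test, against 20.2% and 25% of all detected genes. Beyond 1.5-fold lay 2, against 9.55% of all detected genes. The test calls smaller differences in genes with more counts, such as Mir17 at 1.03-fold. The list had a median of 473 CPM against 166 CPM for all detected genes, so these shares are not a like baseline. The median log2 ratio of the list was 0.073, that of the family -0.046 and that of all detected genes -0.014. The genes beyond 1.5-fold, Mir34c at 0.72 and Mir34b at 0.62, are genomic neighbours known from multiciliated cells and were chosen after their values were seen. The choroid plexus and multiciliated list, which holds them, was also higher in replicate 2, and its part in these ratios was not tested.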

How the data were processed

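The deposited tables, 1 per library, held raw read counts per microRNA gene, which the authors had aligned to mm10 and counted on GENCODE M4, per the README text deposited with them. Aligner, counter and trimming were not given in the sources used here. The README does not say which strand a column holds, and the one with 98.1% of the either-strand counts was used as the annotated strand. The 4 summary rows stayed out of library sizes. The gene rows held 49.0% of 6141045 reads in replicate 1 and 47.5% of 9486700 in replicate 2. For names and loci GENCODE M21 (GRCm38, the same assembly as mm10) was used, with 1894 of 1973 identifiers matched. TMM sizes were computed in edgeR 4.0.16 over rows with a count, and DESeq2 1.42.0 size factors were an alternative. The exact tests and intervals were computed in SciPy 1.17.1. Intervals and floors cover counting error only, since no molecular identifiers are named. edgeR's quasi-likelihood test was not run, since 1 library against 1 library leaves no residual degrees of freedom to estimate spread.

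Named genes were the 5 members, genes with their seed, the 3 highest cell cycle genes, level neighbours, hosts and cluster partners. The members and lists were chosen with earlier results of these data known. Other scalings, filters, strand columns, denominators and single libraries were tried.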

Additional observations from a re-analysis of the deposited data

Results flagged for a closer look

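The strand column that was not used for levels held counts at the Mir497 locus beside Mir195a. The row of Mir497b had 895 counts in replicate 1 and 1337 in replicate 2 on its opposite strand, above the floor set at 3 counts. These were 1.55% and 1.53% of the opposite-strand counts of the libraries. Mir497 has no row of its own, so its counts do not enter any sum of annotated-strand counts.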

How the results depend on the processing

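No paired analysis was possible because the series has 1 group. Per 1000000 reads of all rows, summary rows included, the levels were 1126 for Mir15a, 841 for Mir16-1, 376 for Mir15b, 141 for Mir16-2, 134 for Mir195a and 2617 for their sum, since the denominator holds more reads. With the either-strand column all levels were slightly lower, since its total is larger and the family had 0 opposite-strand counts. Mir15a had 2289 CPM, Mir16-1 1711, Mir15b 764, Mir16-2 287 and Mir195a 272, and the sum was 5323 CPM. With the opposite-strand counts of Mir497b added to the annotated-strand sum, an alternative chosen after seeing the data, the sum was 5723 CPM. Without 1 replicate, Mir15a ran from 2288 to 2379 CPM, Mir16-1 from 1713 to 1774, Mir15b from 755 to 803, Mir16-2 from 274 to 311, Mir195a from 276 to 278 and the sum from 5404 to 5447.

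With a preset coefficient of 0.1 in edgeR's exact test, which adds a spread between libraries, the log2 ratios of Mir15a (-0.091), Mir15b (-0.12) and Mir16-2 (0.15) were no longer past the threshold. That test called 0 family genes, 1 cell cycle gene (Mir34c) and 13 of all detected genes, against 3, 11 and 161 by the exact binomial test. With no filter on low counts Mir16-2, at 0.15, was not past the threshold either (adjusted p = 0.0859), since more genes were tested. At 2-fold, 0 cell cycle genes remained beyond the line, against 2 at 1.5-fold. Over these scalings, filters and columns the adjusted p of Mir15a ran from 0.000130 to 0.0271, of Mir15b from 0.00365 to 0.0455 and of Mir16-2 from 0.0106 to 0.0859, all by the exact binomial test. No family ratio changed sign under totals, DESeq2 size factors, the either-strand column, no filter or TMM from detected genes only (added after seeing the data). Depth limits the family least for Mir15a and most for Mir16-2 and Mir195a.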
